A study of Mus musculus with 12 samples.

Results

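RNA of 10 genes of the canonical Wnt pathway was followed in mouse embryonic stem cells (mESCs), as labeled and as total RNA. The genes were taken by name: Ctnnb1, Apc, Axin1, Gsk3b, Tcf7l1, Tcf7 and Lef1, called effectors here, and Axin2, Znrf3 and Sp5, called feedback targets. They account for 54 of 121429 transcripts with an exonic row, and for 108 of 213131 exonic and intronic rows. Genes were assigned through an annotation with 34079 genes in the table. DTCM23/49 XY mESCs grew in medium with serum and leukemia inhibitory factor and received 200 µM 4-thiouridine (4sU), a uridine analog that is built into RNA during transcription, for 15, 30 or 60 min. RNA carrying 4sU was biotinylated and pulled down (labeled RNA) and was sequenced beside RNA without pulldown (total RNA). Each combination of fraction and labeling time has 2 biological replicates, which gives 6 labeled and 6 total libraries. All libraries received 4sU, no Wnt ligand or inhibitor was added, and both replicates descend from 1 culture divided before passaging, so that the spread between them is that of parallel cultures of 1 cell line.

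In the canonical pathway, a destruction complex of the scaffolds Axin and Apc with the kinase Gsk3b marks β-catenin, the product of Ctnnb1, for degradation. Wnt ligands at Frizzled and Lrp receptors block that complex, and β-catenin then enters the nucleus and works with DNA-bound Tcf and Lef factors. Axin2, Znrf3 and Sp5 are textbook targets of these factors that restrain the signal in turn. In mESCs, Tcf7l1 is known as a repressor of pluripotency genes that β-catenin relieves, while Tcf7 and Lef1 act more as activators and are also targets of the pathway themselves.

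Tcf and Lef factors bind DNA with the core CTTTG, most strongly where it continues as CTTTGAT. The 250 bases before the start site are shown for 3 genes because Sp5 stood apart from the other members examined in its number of cores. Capitals mark the core CTTTG read on either strand, so that a core on the opposite strand appears as CAAAG. Sequences are RefSeq GRCm38.p6, read 5′ to 3′ on the strand of the gene.
Sp5, plus strand, chr2:70474673-70474922: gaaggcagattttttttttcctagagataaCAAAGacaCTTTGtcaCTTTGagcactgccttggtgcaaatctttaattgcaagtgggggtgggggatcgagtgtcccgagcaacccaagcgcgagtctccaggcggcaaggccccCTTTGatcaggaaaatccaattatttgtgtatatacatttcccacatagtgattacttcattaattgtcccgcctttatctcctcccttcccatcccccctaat
Lef1, plus strand, chr3:131110047-131110296: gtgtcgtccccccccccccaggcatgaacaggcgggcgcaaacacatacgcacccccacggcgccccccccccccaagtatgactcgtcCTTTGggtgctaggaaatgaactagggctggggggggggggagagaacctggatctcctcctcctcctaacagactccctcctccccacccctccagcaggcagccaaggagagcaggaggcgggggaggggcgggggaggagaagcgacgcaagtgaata
Tcf7l1, minus strand, chr6:72789046-72789295: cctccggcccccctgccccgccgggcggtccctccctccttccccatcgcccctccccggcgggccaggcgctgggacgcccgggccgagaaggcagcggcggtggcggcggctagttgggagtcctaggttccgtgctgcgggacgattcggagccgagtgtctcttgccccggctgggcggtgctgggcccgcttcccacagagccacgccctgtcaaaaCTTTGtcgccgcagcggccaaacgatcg
Promoters of 7 of the 10 genes were examined, with 12 start sites in all, and those of Apc, Axin1 and Znrf3 were not. Sp5 held 4 cores, and 0.773% of 32851 promoters held at least as many. Of the member promoters examined, Sp5 held CTTTGAT and the other 11 did not, and its site began 104 bases before the start site (position -104). CTTTGAT was found on either strand in 3.21% of all promoters, and the shorter CTTTG, which every CTTTGAT contains, in 48.6%. A downstream Lef1 start site had 3 cores, of which 1 continued as CTTTGTA, a form found in 3.20% of promoters. The Axin2, Ctnnb1 and Tcf7 promoters held no core within this window. A match describes letters and not a bound site.

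The deposited values are abundances corrected for length that sum to between 19988830 and 19992902 in each library, and no value of 1 or less is listed. Sequencing depth could therefore not be read from them and no counting error is given. All 10 marker genes of embryonic stem cells were present in total RNA, with the lowest median for Zfp42 at 165. Markers of other lineages were low, with Sox17, Neurog2, Cdx2 and Twist2 listed in none of the 6 total libraries. The exceptions were Pax6, Fbln1 and Thy1 with medians of 26.9, 67.2 and 34.6. Introns held between 6.53% and 7.41% of the abundance in the 6 total libraries and between 9.35% and 14.8% in 4 labeled libraries. In the labeled libraries of replicate 2 at 15 and 60 min they held 7.24% and 6.99%, within the range of total RNA. The limma comparisons of labeled RNA below were repeated without these 2 libraries, and the outcome is given with each set of comparisons. Ratios within a library and correlations with Axin2 were not repeated.

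The members differed widely in level in total RNA. Taken by their most abundant transcript, Ctnnb1 came first at an abundance of 1179 ± 104 (SD, n = 6) and lay above 97.4% of 21503 protein-coding genes. Apc followed at 571 ± 146, Gsk3b at 333 ± 101 and Tcf7 at 315 ± 64.7, with overlap between Apc and Gsk3b and between Gsk3b and Tcf7. A gap separated them from Znrf3 at 76.2 ± 14.4, Tcf7l1 at 62.1 ± 24.5, Axin1 at 38.9 ± 4.85, Axin2 at 29.9 ± 12.5 and Lef1 at 16.6 ± 4.42, whose neighbors in this order overlapped as well. By sums over the transcripts of a gene, which the comparisons below use, Tcf7l1 at 196 ± 17.6 and Axin1 at 152 ± 23.2 lay above Znrf3 at 128 ± 18.7. Sp5 was listed in 1 of 6 total libraries, at 1.16. The leading transcripts of Apc, Gsk3b and Axin2 are annotated as noncoding or as targets of nonsense-mediated decay, and they share exons with the coding isoforms.

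Labeled and total RNA were compared to ask how much of each gene's exonic RNA was made during the labeling. Of the 9 members that passed a mean of 20, all 7 effectors had less exonic RNA in labeled than in total RNA and both feedback targets had more. The difference passed an adjusted p of 0.05 (limma, 6 against 6 libraries, labeling time as a covariate) for 4 effectors, all lower: Ctnnb1, Tcf7l1, Tcf7 and Lef1. Among all 13977 genes tested, 11.6% were called lower and 5.28% higher, and the median difference was -0.05 on the log2 scale. By direction alone, 7610 of these genes lay below 0 and 6367 above. Library totals are equal by construction, so a difference is relative to all other RNA of the same library. With either replicate left out, which leaves 3 libraries against 3, 0 of the 9 members passed in limma (1 of 9 at an unadjusted p under 0.05 in both cases), and 0 or 5 of the 13977 genes did (1356 and 2099 unadjusted). With replicate number and labeling time as a replicate block, 3 of 9 passed, all lower and without Ctnnb1. In that setting 815 of the 13977 genes were called lower. Without the 2 labeled libraries of low intronic share, the same 4 effectors were lower, with differences from -0.49 for Ctnnb1 to -0.96 for Tcf7l1 and adjusted p between 0.0021 and 0.0252, where 14.7% of all genes were called lower.

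**Figure D1:**
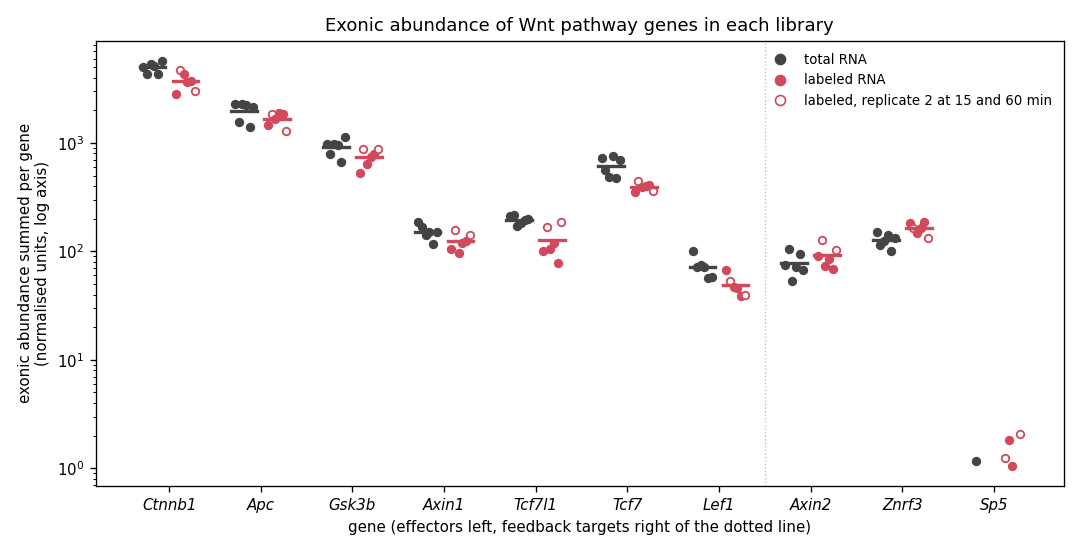
Exonic abundance summed per gene (log axis, normalised units) of the 10 genes in the 6 total libraries (grey) and 6 labeled libraries (red), with bars for means where all 6 libraries have a value. Open symbols are the labeled libraries of replicate 2 at 15 and 60 min. The 6 labeled libraries of Tcf7 lie between 355 and 450, all below the total libraries, while those of Axin2 and Znrf3 overlap with total RNA and have higher means.

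Ctnnb1 encodes β-catenin, the transducer of the signal. Its exonic abundance in total RNA was lowest at 4308, had a median of 5026 and was highest at 5708, and in labeled RNA it ran from 2809 over a median of 3684 to 4730. The groups overlapped, and 6 of 6 labeled libraries lay below the median of total RNA. The difference was -0.44 ± 0.14 (log2, SE), or 1.35-fold lower in labeled RNA (adjusted p = 0.0496, limma), close to the threshold. The call was lost with the replicate block (adjusted p = 0.106), without a filter (0.0793) and with exons and introns summed (0.0801).

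Apc and Axin1 encode the scaffolds of the destruction complex and Gsk3b its kinase. Apc ran from 1388 over 2195 to 2307 in total RNA and from 1279 over 1755 to 1896 in labeled RNA, a log2 difference of -0.24 ± 0.15 (adjusted p = 0.288, limma). Axin1 ran from 116 over 151 to 185 in total and from 96.2 over 121 to 159 in labeled RNA, a difference of -0.30 ± 0.14 (adjusted p = 0.173). Gsk3b ran from 662 over 962 to 1143 and from 528 over 762 to 882, a difference of -0.31 ± 0.17 (adjusted p = 0.216). For all 3 genes the fractions overlapped and the test was not passed. Without the 2 labeled libraries of low intronic share, Apc was at -0.23, Axin1 at -0.43 and Gsk3b at -0.46. None of the 3 passed in that setting either (adjusted p = 0.337, 0.0575 and 0.0776, limma). Below the median of total RNA lay 6 of 6 labeled libraries of Apc and Gsk3b and 5 of 6 of Axin1.

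The Tcf and Lef factors bring the signal to DNA, and 3 of them are members. Tcf7, known as an activator, ran from 471 over a median of 626 to 763 in total RNA and from 355 over 397 to 450 in labeled RNA. Every labeled library lay below every total library, which was the case for 7.28% of all genes tested, and the difference was -0.62 ± 0.15 or 1.54-fold lower (adjusted p = 0.0146, limma). It was the only member without overlap. Tcf7l1, the repressor, ran from 170 over 196 to 217 in total and from 78.7 over 112 to 185 in labeled RNA, a difference of -0.69 ± 0.19 or 1.61-fold lower (adjusted p = 0.0325). Its 2 highest labeled libraries, at 168 and 185, were those of replicate 2 at 15 and 60 min, and without them the difference was -0.96 ± 0.13 (adjusted p = 0.0021). Lef1, which shares its DNA-binding domain with the Tcf factors, ran from 56.7 over 71.3 to 100.1 in total and from 38.6 over 46.2 to 67.6 in labeled RNA, a difference of -0.56 ± 0.13 or 1.48-fold lower (adjusted p = 0.0148), which was lost with exons and introns summed (adjusted p = 0.193). Tcf7l1 and Lef1 overlapped between the fractions, although 6 of 6 labeled libraries of both lay below the median of total RNA.

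The feedback targets lay on the other side of 0 without passing the test. Axin2, the inducible paralog of Axin1, ran from 53.5 over a median of 73.4 to 106 in total RNA and from 69.4 over 88.5 to 127 in labeled RNA. Its difference was 0.23 ± 0.17 (adjusted p = 0.363, limma), 5 of 6 labeled libraries lay above the median of total RNA, and the fractions overlapped. Znrf3, a ubiquitin ligase that removes Frizzled receptors from the cell surface, ran from 102 over 129 to 152 in total and from 132 over 165 to 185 in labeled RNA. Its difference of 0.35 ± 0.13 (adjusted p = 0.0876) had 6 of 6 labeled libraries above the median of total RNA. No feedback target was free of overlap in this direction, as 2.72% of all genes were. With each library centred on its median, Znrf3 passed (0.37, adjusted p = 0.0229, between 0.0229 and 0.688 over the alternatives) and Tcf7l1 no longer did (-0.67, adjusted p = 0.0562, between 0.0021 and 0.581). Tcf7l1 also did not pass without a filter (0.0529) or by its most abundant transcript (0.236). Without the 2 labeled libraries of low intronic share, Axin2 was at 0.10 ± 0.18 and Znrf3 at 0.43 ± 0.14 (adjusted p = 0.708 and 0.0590). Sp5, a zinc finger transcription factor, was listed in 4 of 6 labeled libraries with values between 1.05 and 2.05 and in 1 of 6 total libraries, which was too low to test. The Sp5 promoter thus held the most cores of the member promoters shown above, and Sp5 had the least RNA of the 10 genes.

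Set side by side as a description, the effectors had a median log2 difference of -0.44 with a range from -0.69 to -0.24, and the 2 tested feedback targets had a median of 0.29. With Tcf7 and Lef1 counted as targets, the medians were -0.31 for the remaining 5 effectors and -0.16 for the 4 tested targets, so that the gap between the groups fell from 0.73 to 0.15. Ratios between members within a library do not depend on how libraries were scaled. The ratio of Axin2 to Axin1 had a median of 0.460 in total and 0.751 in labeled RNA, but total libraries reached 0.818 and overlapped with the labeled range from 0.558 to 0.863. The ratio of Znrf3 to Ctnnb1 ran from 0.0229 to 0.0305 in total and from 0.0343 to 0.0648 in labeled RNA without overlap. These pairs were picked after the values had been seen and were not tested. How many other pairs of genes lack overlap was not determined.

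**Figure D2:**
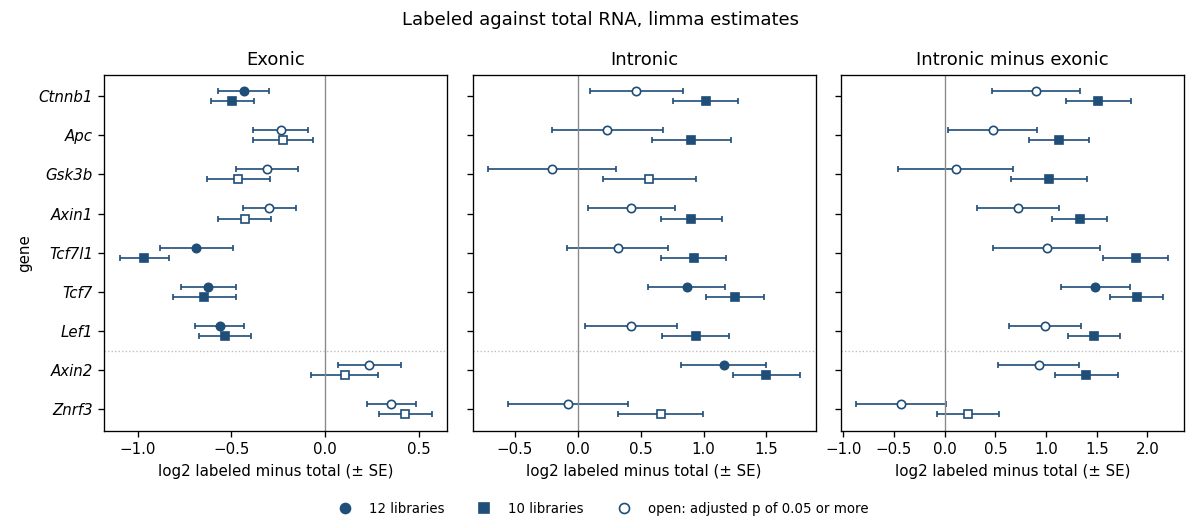
Log2 difference between labeled and total RNA (limma estimate ± SE) for 9 genes in exonic abundance, intronic abundance and intronic minus exonic abundance, with 12 libraries (circles) and with 10 libraries (squares, without the labeled libraries of replicate 2 at 15 and 60 min). Filled symbols passed an adjusted p of 0.05, and the intronic estimates lie further to the right with 10 libraries for each of the 9 genes. The 2 libraries were left out for their low intronic share, so such a shift follows in part from that choice.

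Introns are removed from most transcripts soon after they are made, and intronic RNA was compared to follow the unspliced transcripts. With all 12 libraries, 2 of 9 members rose in labeled RNA, where 30.2% of 14780 genes tested were called higher. Axin2 introns ran from 4.31 over a median of 6.16 to 10.1 in total and from 7.76 over 16.2 to 30.6 in labeled RNA, a difference of 1.16 ± 0.33 or 2.23-fold (adjusted p = 0.0194, limma). Tcf7 introns ran from 16.0 over 19.9 to 26.2 and from 21.1 over 39.1 to 64.2, a difference of 0.86 ± 0.31 or 1.82-fold (adjusted p = 0.0453). Both overlapped between the fractions, and 6 of 6 labeled libraries of each lay above the median of total RNA. Without replicate 1 neither passed (Axin2 0.71, adjusted p = 0.246, and Tcf7 0.42, adjusted p = 0.518). The 1 member that did, Gsk3b, was lower (-1.03, adjusted p = 0.0353), where 102 of the 14780 genes were called lower. Without a filter Tcf7 did not pass (adjusted p = 0.0591). The median of all genes was itself 0.65 higher in labeled RNA, and with each library centred on its median 0 of the 9 members passed in limma, with 4 of 9 at an unadjusted p under 0.05. Gsk3b (-0.20 ± 0.51) and Znrf3 (-0.08 ± 0.48) had the lowest differences of the members, and 2.00% and 3.48% of all genes lay below them.

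The 2 labeled libraries with a low intronic share set much of this spread. Intronic Ctnnb1 was 896, 383, 608 and 934 in the other 4 labeled libraries and 229 and 217 in these 2, against 254 to 414 in total RNA. Intronic Znrf3 was 150, 41.4, 65.6 and 161 in the 4 libraries and 23.4 and 21.5 in the 2, against 43.7 to 72.7. Without the 2 libraries, 7 of 9 members were higher in labeled RNA, where 88.8% of all genes were. These were Axin2 (1.50 ± 0.27), Tcf7 (1.25 ± 0.23), Ctnnb1 (1.02 ± 0.26), Lef1 (0.94 ± 0.27), Tcf7l1 (0.92 ± 0.26), Apc (0.90 ± 0.31) and Axin1 (0.90 ± 0.24), with adjusted p between 0.00058 and 0.0174 in limma. Znrf3 (0.66 ± 0.34, adjusted p = 0.0798) and Gsk3b (0.57 ± 0.37, adjusted p = 0.157) did not pass. The 2 libraries were left out for their low intronic share, which bears on the intronic abundance compared here. Higher intronic estimates without them therefore follow in part from that choice and are no separate evidence. Why these 2 libraries differ was not tested.

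Intronic abundance as a share of exonic abundance within a library is free of the scaling. In total RNA the median share was lowest for Tcf7 at 3.26% and Gsk3b at 5.99%, and highest for Axin1 at 31.7% and Znrf3 at 46.2%. In labeled RNA the share of Tcf7 ran from 4.70% over 9.83% to 15.7%, against 2.24% to 4.65% in total RNA. Its lowest labeled library lay just above its highest total library. How many other genes lack overlap in this share was not determined. Tcf7 was the 1 member to pass in the test of intronic minus exonic abundance (1.49 ± 0.34 on the log2 scale or 2.80-fold, adjusted p = 0.0098, limma), where 26.0% of 10228 genes were called higher. The call was lost without replicate 1 (1.15, adjusted p = 0.216). With the replicate block Lef1 and Tcf7l1 passed as well (adjusted p = 0.0293 and 0.0495), where 3466 of the 10228 genes were called higher. For Tcf7l1 the share ran from 13.7% to 26.6% in total and from 10.0% to 113% in labeled RNA, where a share over 100% means more intronic than exonic abundance per length. For Znrf3 it ran from 38.5% over 46.2% to 58.9% in total and from 14.1% over 33.8% to 86.8% in labeled RNA, a difference of -0.43 ± 0.44 (adjusted p = 0.431), and 1.15% of all genes lay below it.

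Without the 2 libraries, 8 of 9 members had a higher intronic share in labeled RNA, as did 81.8% of all genes. Since these libraries were left out for a low intronic share, this rise follows in part from the choice. The differences of the 8 ran from 1.03 ± 0.37 for Gsk3b to 1.89 ± 0.27 for Tcf7, with Tcf7l1 at 1.88 ± 0.32 beside it. Znrf3 turned from -0.43 with 12 libraries to 0.23 ± 0.31 (adjusted p = 0.483, limma) and did not pass in either case.

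**Figure D3:**
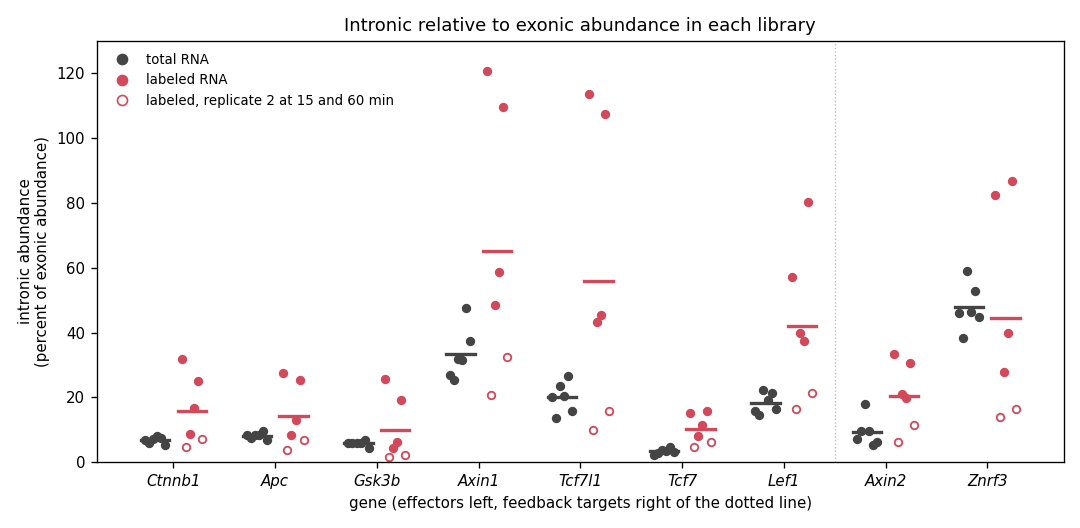
Intronic abundance as a percentage of exonic abundance for 9 genes in each total (grey) and labeled (red) library, with bars for the means of 6 libraries and open symbols for the labeled libraries of replicate 2 at 15 and 60 min. Labeled libraries reach 121% for Axin1 and 113% for Tcf7l1, total libraries are highest for Znrf3, and the open symbols lie at the bottom of the labeled range of each gene.

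Isoforms were then compared, since sums over transcripts can hide them. Of 54 transcripts, 38 passed a mean of 20 and 9 of these fell in labeled RNA while none rose, where 14.1% of 34196 transcripts were called lower. The 9 belong to Ctnnb1, Tcf7, Tcf7l1 and Gsk3b, with several from Ctnnb1. Isoforms of 1 gene share exons, so these transcripts do not count as separate members. Without the 2 labeled libraries of low intronic share, 18 passed, of which 17 were lower, beside 17.7% of all transcripts, and 1 Apc transcript (ENSMUST00000170195) was higher (0.89, adjusted p = 0.0386), beside 7.16%. With the replicate block 4 passed, all lower, beside 2436 of the 34196 transcripts called lower. The leading Ctnnb1 transcript ENSMUST00000007130 was 867 in labeled against 1179 in total RNA, a difference of -0.46 (adjusted p = 0.039, limma). Tcf7 was split between ENSMUST00000086844 and ENSMUST00000109071, with 51.0% and 49.0% of its abundance in total RNA, and both fell (-0.60 and -0.64, adjusted p = 0.020 and 0.012). Both carry a coding length of 912 bases and differ in their 3′ UTRs of 1512 and 647 bases. Of the 3 Tcf7l1 transcripts with 28.3% to 31.7% of the abundance each, ENSMUST00000114053 fell (-0.71, adjusted p = 0.030). The leading Apc and Gsk3b transcripts, ENSMUST00000165590 and ENSMUST00000134870, had differences of -0.24 and -0.23 and did not pass.

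Among the coding transcripts of Gsk3b, the one with a 3′ UTR of 5515 bases (ENSMUST00000023507) fell by 0.63 on the log2 scale (adjusted p = 0.0018, limma), while the one with a 3′ UTR of 210 bases (ENSMUST00000114750) was at -0.26 (adjusted p = 0.311). Without the 2 labeled libraries of low intronic share they were at -0.69 and -0.41 (adjusted p = 0.0014 and 0.106). Their ratio, long over short, ran from 0.617 over a median of 0.795 to 1.04 in total RNA and from 0.498 over 0.622 to 0.850 in labeled RNA. For Apc, the ratio of the isoform with a 3′ UTR of 27 bases (ENSMUST00000079362) to that of 3608 bases (ENSMUST00000115781) ran from 1.09 over 1.19 to 1.25 in total RNA and from 1.31 over 1.32 to 1.49 in labeled RNA. In both genes the long isoform had the smaller part in labeled RNA, with overlap between the fractions for Gsk3b and none for Apc. Neither Apc transcript passed on its own (-0.14 and -0.33), and the pairs were picked after their values had been seen, so no test is given. How many other isoform pairs lack overlap was not determined. RSEM, the quantifier named for these data, divides reads shared by isoforms among them by estimation, so values of single isoforms are estimates.

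**Figure D4:**
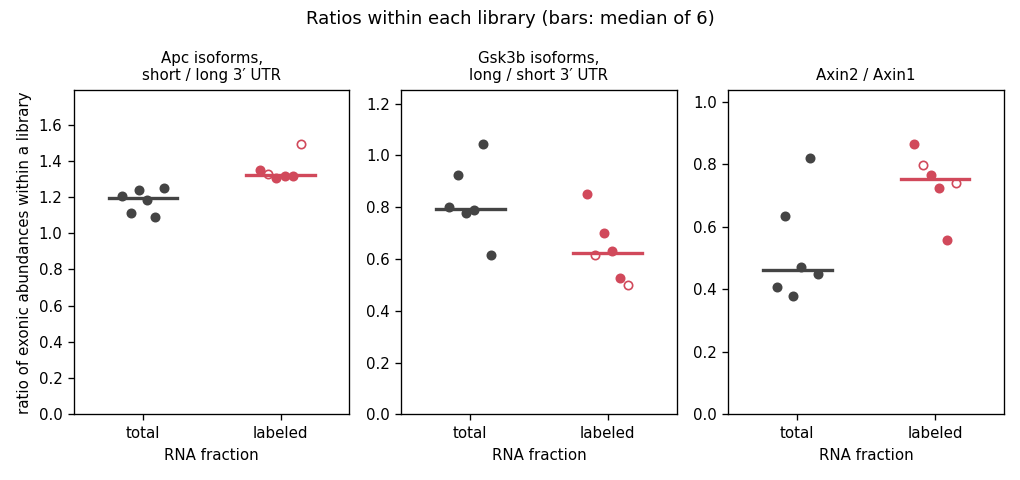
Ratios of exonic abundances within each library for the Apc isoforms with a 3′ UTR of 27 and of 3608 bases, the Gsk3b isoforms with a 3′ UTR of 5515 and of 210 bases, and Axin2 over Axin1, in 6 total (grey) and 6 labeled (red) libraries with bars for medians and open symbols for the labeled libraries of replicate 2 at 15 and 60 min. The fractions do not overlap for Apc and overlap in the other panels.

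Sequence in the 3′ UTR was examined because AU-rich elements there, built on ATTTA, are known to mark short-lived mRNAs. The elements of the longer form TTATTTA in Znrf3, with the largest exonic difference in the direction of labeled RNA, are shown beside those of the long Gsk3b isoform and of Lef1, which fell. Capitals mark TTATTTA on the strand of the RNA, with positions counted from the first base after the stop codon in transcripts of GENCODE M1 (mouse build NCBIM37).
Znrf3, ENSMUST00000109867, from 358: aatgtaaaaagTTATTTAaatatatattt
Znrf3, ENSMUST00000109867, from 1429: gggagagagaaTTATTTAaaatcacttca
Znrf3, ENSMUST00000109867, from 3161: tctcagaatatTTATTTActaatatattt
Gsk3b, ENSMUST00000023507, from 150: tattgttgttcTTATTTAaccttgtaaaa
Gsk3b, ENSMUST00000023507, from 1168: gctttttaaatTTATTTAttgatgcatgt
Lef1, ENSMUST00000106341, from 423: tatccaaatttTTATTTAacagtacaaaa
The Znrf3 transcript held 12 copies of ATTTA in a 3′ UTR of 3400 bases, against a median of 5 in 3′ UTRs of similar length (0.8 to 1.25 times), of which 49.3% held TTATTTA. The more abundant Znrf3 transcript ENSMUST00000172492 held 3 copies in 2192 bases, equal to the median of 3, and it also held the sequence shown from 358. The long Gsk3b isoform held 11 copies against a median of 9, Lef1 3 against 2 and Axin2 3 against 2. Tcf7l1 and Sp5 each held 2 against 1. The long Apc isoform held 4 against 6, while the 3′ UTRs of Ctnnb1, Tcf7 and Axin1 held 0. The short Gsk3b isoform ENSMUST00000114750, which did not pass, shares the Gsk3b element shown from 150. It held 1 copy of ATTTA against a median of 0, and 3.98% of 3′ UTRs of similar length held TTATTTA. Members with and without copies were thus found among the genes that fell.

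Rates were computed as in kinetic models of labeling, with synthesis as labeled exonic abundance per hour. Degradation was synthesis over mature total RNA, taken as exonic minus intronic abundance. Since every library has the same total, such rates are relative and their values at 15 min exceed those at 60 min by construction, so that members are placed by rank. The rates use the exonic values of the comparison above and, for degradation, total intronic values as well, and are no separate evidence. A high intronic share in total RNA, as for Znrf3 (median 46.2%), raises the degradation rate by construction. Synthesis was highest for Ctnnb1, above 96.2% of 10611 protein-coding genes with a rate, and lowest for Lef1, above 20.1%. Apc, Gsk3b and Tcf7 lay above 92.0%, 82.5% and 71.4%, Znrf3 above 49.8%, and Tcf7l1, Axin1 and Axin2 above 42.4%, 41.8% and 35.6%. Degradation was lowest for Tcf7, above 2.45% of 9940 genes, followed by Tcf7l1 at 10.7%, Lef1 at 14.6%, Ctnnb1 at 15.6%, Gsk3b at 15.9%, Apc at 25.1% and Axin1 at 48.6%. Axin2 stood above 64.0% and Znrf3 above 90.0%. The median degradation rate of the 2 feedback targets was 2.23 times that of the 7 effectors. It was between 1.86 and 2.75 times with either replicate alone, and 2.57 times without the 2 labeled libraries of low intronic share. All these settings count Tcf7 and Lef1 as effectors, although both are also targets and ranked low, at 2.45% and 14.6%. The ratio depends on this grouping, and it was not computed with both counted as targets.

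The labeling times were compared to see whether the labeled RNA of a member changed between 15 and 60 min. With 2 libraries against 2, limma called 0 of 13977 genes in labeled RNA (178 at an unadjusted p under 0.05), 0 in total RNA (108) and 0 for the difference between both changes (162). Lef1 had the largest change of the members, from 67.6 and 53.3 at 15 min to 38.6 and 39.5 at 60 min in labeled RNA (-0.61 ± 0.26, unadjusted p = 0.0419, adjusted p = 1). It moved alike in total RNA, from 100.1 and 71.1 to 56.7 and 58.5 (-0.54 ± 0.26). The other 8 members had log2 changes between -0.34 and 0.29 in labeled RNA. Without the 2 labeled libraries of low intronic share, which leaves 1 labeled library at 15 and 1 at 60 min with a spread taken from the other groups, 30 genes were called in labeled RNA and none was a member (Lef1 -0.79, adjusted p = 0.613).

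The 5 genes whose exonic pattern over the 12 libraries was most like that of Axin2 were Hist1h1b (Pearson r = 0.901), Zfp707 (0.895), Kifc5b (0.885), Hic2 (0.884) and Rbmx2 (0.876), by log2 abundance and as a description. Hist1h1b encodes a linker histone. The points share libraries and scaling. None of the other members resembled Axin2 closely, with r between 0.176 for Tcf7l1 and -0.660 for Apc, and Axin1 was at 0.0877.

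Other genes of the pathway were taken from a list of 116 genes by role, of which 61 were tested and 14 fell in labeled RNA while 1 rose, beside 11.6% and 5.28% of all genes. The median log2 difference of the 61 was -0.24. Of 25 ligands and secretion factors, 2 were tested, and Porcn, which acylates Wnt ligands, fell (-0.57 ± 0.16, adjusted p = 0.0305, limma). Of 13 secreted antagonists, 5 were tested and 0 passed, with Sfrp1 as the most abundant at 326 in total and 328 in labeled RNA. Of 21 receptors, 9 were tested and 2 fell: the R-spondin receptor Lgr4 (-0.54 ± 0.11) and the coreceptor Lrp6 (-0.41 ± 0.13). Of 25 genes of the cytoplasmic relay, 21 were tested and 5 fell, led by Tnks2 (-0.70 ± 0.08, 7472 in total RNA) and Tnks (-0.58 ± 0.15), which mark Axin for degradation. Of 18 nuclear cofactors, 15 were tested and 5 fell, led by Tcf7l2 (-0.77 ± 0.15), the remaining Tcf factor, and the chromatin remodeler Smarca4 (-0.65 ± 0.09). The abundant deacetylase Hdac1 was at -0.44 ± 0.17 and did not pass. Among 14 textbook targets and genes repressed by Tcf7l1, 9 were tested, Klf2 rose (0.76 ± 0.22, adjusted p = 0.0376) and Tfcp2l1 fell (-0.41 ± 0.12, adjusted p = 0.0373), while Nanog, the most abundant, was at -0.12 ± 0.26. Of these 9 genes, 6 lay below 0 and 3 above, with a median of -0.12. The antagonist Notum, also a target, was at -0.04 ± 0.34, so a direction toward labeled RNA was not general among targets. Without the 2 labeled libraries of low intronic share, 20 of the 61 genes fell, beside 14.7% of all genes. Neither Klf2 nor Tfcp2l1 then passed in limma (adjusted p = 0.0654 and 0.0758). With the replicate block 6 fell and none rose, beside 815 and 455 of 13977 genes. Of the genes named here Lgr4, Tnks2, Tcf7l2 and Smarca4 passed in that setting.

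The members lie on 8 chromosomes in GRCm38 and differ in length (RefSeq coordinates). The gene with the lowest RNA level is also the shortest, Sp5 on chromosome 2 from 70474923 to 70477726. Ctnnb1 lies on chromosome 9 from 120933400 to 120960507, Tcf7 on chromosome 11 from 52246527 to 52283383 and Axin2 on the same chromosome from 108917828 to 108950783. The longest member is Znrf3, on chromosome 11 from 5276329 to 5444847, followed by Tcf7l1 on chromosome 6 from 72626371 to 72789045. Lef1 lies on chromosome 3 from 131110297 to 131224357, Gsk3b on chromosome 16 from 38089001 to 38246084, Axin1 on chromosome 17 from 26131217 to 26195811 and Apc on chromosome 18. Exonic differences passed in short and in long genes, with Tcf7 spanning 36.9 kb and Tcf7l1 162.7 kb. Uridine, where 4sU is built in, makes up between 20.6% and 25.4% of the leading coding transcripts of Tcf7l1, Axin1, Tcf7, Znrf3, Lef1 and Ctnnb1, and 28.6% of the long Gsk3b isoform. Its part in the differences was not tested.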

How the data were processed

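RNA of mESCs was measured in 6 labeled and 6 total libraries. Per the paper's methods, the authors discarded rRNA reads, aligned the remainder to exonic and intronic sequences with STAR v2.5.0 and quantified them with RSEM (mm10, per the submitters' processing notes). The deposited signal values behave as abundances normalised for length and scaled to an equal total per library. The scaling is not given in the sources used here, and depth is unknown. Transcripts were assigned to genes with GENCODE M1, in which 75.1% of Ensembl transcripts with exonic rows were found, and others were not used here.

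Values were summed per gene, with missing values as 0. They were tested with limma 3.58.1 (R 4.3.3) as log2 of the value with a pseudocount of 1, with labeling time in the model and a mean-variance trend (none for intronic minus exonic). Filters were means of 20 (exonic) and 5 (intronic), and p-values were adjusted by Benjamini-Hochberg over all genes at 0.05. Fold changes on this scale understate those of low genes. The exonic and intronic tests were run on simulated data with independent noise for each gene. Such data hold no deviation shared by a whole library or culture, so that run does not cover such deviations. Members and gene lists were chosen with earlier results of these data known. Named were all members, transcripts with at least 10% of a member's abundance, up to 2 genes per role and direction with the largest called difference, the most abundant gene per role and the 5 genes most correlated with Axin2. Transcripts are described where a result turned on them. The replicate number was taken to mark which of 2 parallel cultures a library came from, which the labels do not state. Whether labeled and total RNA came from the same dish is not given in the sources used here. Deviations of labeled and total RNA with the same number correlated at -0.069, 0.048 and -0.19 at 15, 30 and 60 min. The alternatives concerned pairing, replicates, pseudocount, filter, scaling and isoforms. Figures used Python 3.11.15 with matplotlib 3.10.9.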

Additional observations from a re-analysis of the deposited data

How the results depend on the processing

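Leaving out replicate 1 or 2 left 0 to 5 genes called in exonic abundance (0 members and 0 genes of the wider list either way, limma), 7 to 8 transcripts (0 of members), 1833 to 7036 genes in introns and 331 to 4472 in intronic minus exonic abundance (0 to 6 members). Of the members in introns, Gsk3b alone passed without replicate 1, as lower, and Axin2, Tcf7 and Ctnnb1 without replicate 2, as higher (1 to 3 members). Intronic differences then ran from 0.71 to 1.60 for Axin2, 0.42 to 1.30 for Tcf7, -0.35 to 0.82 for Apc, -0.031 to 0.96 for Ctnnb1, -1.03 to 0.62 for Gsk3b, -0.044 to 0.89 for Axin1, -0.045 to 0.89 for Lef1, -0.77 to 0.62 for Znrf3 and -0.12 to 0.76 for Tcf7l1. Intronic minus exonic differences ran from -0.098 to 1.04 for Apc, -0.83 to 1.04 for Gsk3b and -1.02 to 0.16 for Znrf3, the Axin2 transcript ENSMUST00000139682 from -0.36 to 0.19, and the gap between targets and effectors from 0.67 to 0.73. Without the labeled libraries of replicate 2 at 15 and 60 min, an alternative chosen after seeing the data, 13186 genes were called in introns, with 7 members (Gsk3b at 0.57 and Znrf3 at 0.66), 8411 in intronic minus exonic abundance with 8 members (Znrf3 at 0.23), 18 member transcripts, and 30, 11 and 32 genes for 60 against 15 min in labeled RNA, in total RNA and in their difference, none a member.

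With labeling time and replicate number as a replicate block, 1270 genes and 3307 transcripts were called in exonic abundance (3 members, without Ctnnb1, 4 member transcripts and 6 genes of the wider list), and 3 members in intronic minus exonic abundance, where Lef1 and Tcf7l1 were gained; it changed no other call of a member gene. Centring each library gave 1818 genes and 0 members in introns, with Apc at -0.47, Ctnnb1 at -0.24, Axin1 and Lef1 at -0.28 and Tcf7l1 at -0.39, and 3 genes for 60 against 15 min in total RNA. A pseudocount of 5 gave 4 genes there and 2 members in intronic minus exonic abundance, where 2813 of 10228 genes were called higher. Without a filter, 2 members passed in exons as lower, beside 1265 of 25295 genes. In introns 1 member passed as higher, beside 4633 of 20368 genes. Of the wider list 9 genes passed in exons without a filter. In that setting 6, 8 and 8 genes changed with time in labeled RNA, in total RNA and in their difference, none a member. With exons and introns summed, 2 members passed as lower, beside 1035 of 16292 genes. With the most abundant transcript 2 members passed as lower, beside 1689 of 12632 genes, and Axin2 was at -0.083 by that transcript. Counting Tcf7 and Lef1 with the targets gave a gap of 0.15. The ratio of synthesis, targets over effectors, was 0.332, and 0.351 at 15 min and 0.298 at 30 min alone. Of alternatives for single genes and transcripts, 246 kept direction and call, 68 lost a call, 23 gained one and 20 turned the sign, and the cause was not tested. A count test was not run, since the values are not counts.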
